A study of Mus musculus with 25 samples.

Results

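H3K9me3 peaks on chromosomes 1 to 19 were compared between wild-type and mfn2-/- regenerating mouse myofibers, with 3 peak lists of chromatin immunoprecipitation sequencing (ChIP-seq) per genotype. The members were the peaks of the 6 H3K9me3 lists labelled with these genotypes, taken by label and chromosome alone, which gave 9922 autosomal peaks of 12647 in these 6 lists and of 55242 in the 24 lists of the series. All animals carried Pax7-Cre(ERT2), whose Cre acts on floxed alleles in muscle stem cells after tamoxifen, and a mito-Dendra2 reporter that marks mitochondria of the recombined cells and their progeny. The mfn2-/- animals also carried floxed Mfn2, a gene for an outer membrane protein of mitochondria that drives their fusion. Both genotypes received tamoxifen at 75 mg/kg on each of 5 days, and 2 days later 50 µL of 1.2% BaCl2 in the tibialis anterior, a muscle of the lower leg. Dendra2+ fibers were taken 14 days post injury (dpi). Age, sex and strain were not given in the labels. Since recombination was driven in stem cells, the deletion reached only fibers that those cells built or joined, and any nuclei of other cells kept the allele. The study describes the ChIP-seq replicates as biological, and the labels do not tie lists to animals.

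H3K9me3, trimethylated lysine 9 of histone H3, is the mark of constitutive heterochromatin. It is written by enzymes such as SETDB1 and SUV39H1, and it is bound by HP1 proteins that hold chromatin compact and silent. In mammalian genomes it is known for covering satellite and transposon repeats and the clusters of KRAB zinc finger genes, whose proteins themselves bring SETDB1 to DNA. Gene families that are silent in muscle and arranged as arrays of near copies, such as pheromone receptors, are further places where it gathers.

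One example of the difference was a block on chromosome 1 around Sp110 and Sp140, genes for nuclear body proteins of the immune response. The RefSeq promoter windows of 31396 gene starts (GRCm38.p6, from 250 bases before to 50 after the start) were set against the peaks. Of these, 36, 29 and 33 lay at least in part under a peak in the wild-type lists and 5, 2 and 8 in the mfn2-/- lists (exact permutation test, p = 0.1). A further count found 11 windows with a peak in every wild-type and no mfn2-/- list, which is 0.035% of all windows, and 0 in the opposite direction. Promoter windows of 4 genes from this set are shown. All 300 of their bases lay under a peak in each wild-type list. The same held for a window of A530040E14Rik (1 CG dinucleotide) and a window of Gm40237 (10), which are not shown. In the sequences the capitals mark CG dinucleotides, the letters that DNA methylation acts on:
Sp140: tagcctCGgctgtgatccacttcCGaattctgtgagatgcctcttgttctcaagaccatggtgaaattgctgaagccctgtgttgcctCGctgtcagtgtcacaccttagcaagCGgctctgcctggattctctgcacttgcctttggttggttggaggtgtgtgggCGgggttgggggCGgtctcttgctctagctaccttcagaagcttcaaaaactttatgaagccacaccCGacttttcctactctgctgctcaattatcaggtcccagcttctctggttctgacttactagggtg
A530032D15Rik: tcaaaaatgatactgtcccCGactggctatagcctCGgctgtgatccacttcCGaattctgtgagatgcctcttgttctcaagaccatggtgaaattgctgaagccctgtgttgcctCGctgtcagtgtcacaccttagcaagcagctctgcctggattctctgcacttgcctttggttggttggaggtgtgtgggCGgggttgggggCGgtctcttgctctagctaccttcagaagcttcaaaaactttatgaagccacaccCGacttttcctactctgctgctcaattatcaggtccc
Sp110: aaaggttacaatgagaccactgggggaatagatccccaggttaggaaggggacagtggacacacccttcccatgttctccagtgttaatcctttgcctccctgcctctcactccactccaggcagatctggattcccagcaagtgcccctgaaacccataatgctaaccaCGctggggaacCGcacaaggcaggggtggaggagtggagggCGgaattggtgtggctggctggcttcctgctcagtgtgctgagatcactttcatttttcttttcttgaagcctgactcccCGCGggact
Ugt1a1: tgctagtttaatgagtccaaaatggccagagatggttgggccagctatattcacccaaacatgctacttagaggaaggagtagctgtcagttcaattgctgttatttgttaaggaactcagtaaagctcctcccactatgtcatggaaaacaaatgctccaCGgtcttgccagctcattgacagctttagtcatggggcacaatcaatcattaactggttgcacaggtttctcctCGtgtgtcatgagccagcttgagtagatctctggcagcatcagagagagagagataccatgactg
They stand on chr1:85600453-85600752 (plus strand), chr1:85109804-85110103 (minus strand), chr1:85598761-85599060 (minus strand) and chr1:88211709-88212008 (plus strand), each written along the gene's own strand. The Sp140 and A530032D15Rik windows hold 7 CG each, and 52.5% of all windows in the table have that many or more. Sp110 has 5 (62.4% of windows have that many or more) and Ugt1a1, a gene for a bilirubin-conjugating enzyme, has 2 (86.2%). When aligned, the Sp140 and A530032D15Rik windows matched at 270 of 271 bases, so that reads from this block can come from near-identical copies and the place of single peaks within it is uncertain. The 11 windows, in which Gm15564 and Gm40237 are counted repeatedly, had a mean GC content of 50.2%, against 54.0% over all windows. The 71 windows under a peak in at least 1 of the 6 lists had 46.5%, which is lower than in the 11.

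The mfn2-/- lists held fewer H3K9me3 peaks than the wild-type lists, and the peaks covered less of the genome. The wild-type lists had 2176, 2407 and 2239 autosomal peaks and the mfn2-/- lists 1014, 780 and 1306. Every mfn2-/- list lay below every wild-type list, with means of 2274 ± 119 and 1033 ± 264 (SD, n = 3) and a ratio of geometric means of 0.445. Peaks covered 2.07 ± 0.133 Mb in wild-type and 0.850 ± 0.115 Mb in mfn2-/- lists, a ratio of 0.409. The number of genes to which at least 1 peak was assigned was 1269 ± 86.6 against 722 ± 196. For each of these 3 measures the exact two-sided permutation p was 0.1, the smallest that 3 against 3 libraries allow, and 0.132 after adjustment over 25 tests. No comparison of 3 with 3 libraries here could therefore pass 0.05. Lists of H3K27me3, another histone mark of the series, were also shorter on average in mfn2-/- fibers, with 2457 ± 116 peaks against 3541 ± 192. No read totals come with the lists, so that the depth of each library is unknown and a difference in depth between the genotypes cannot be told apart from a difference in the mark.

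**Figure D1:**
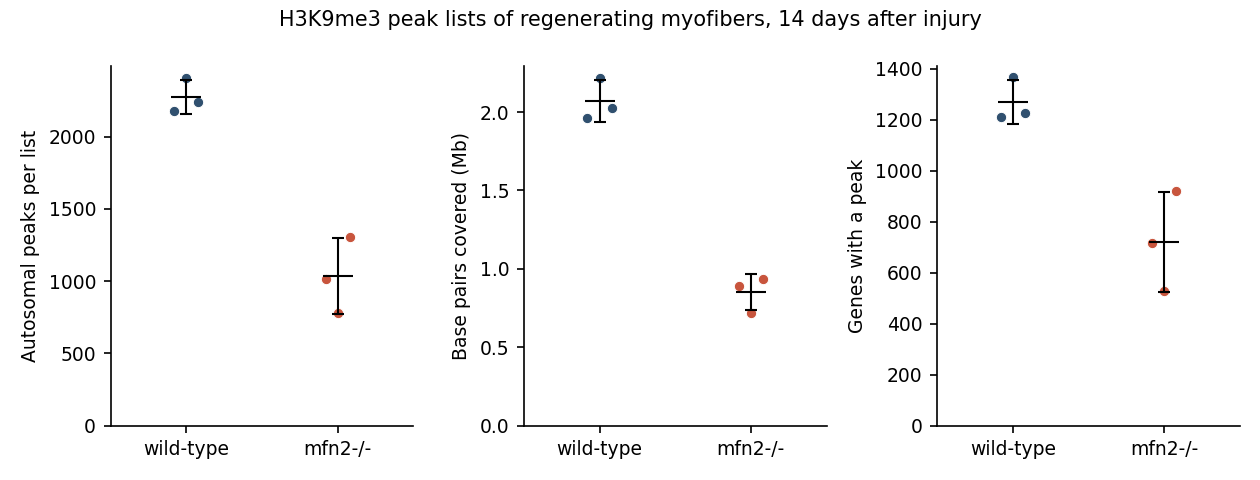
Autosomal H3K9me3 peaks per list, megabases covered and genes with a peak, for 3 wild-type and 3 mfn2-/- libraries. Points are libraries, bars are means with SD, and axes start at 0; in all 3 panels the mfn2-/- libraries lie below the wild-type libraries, with means of 1033 against 2274 peaks.

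The sex chromosomes, which are outside this comparison, also set the genotypes apart. Chromosome X held 24.1%, 23.7% and 25.2% of all peaks in the wild-type lists and 13.5%, 11.2% and 12.1% in the mfn2-/- lists. Peaks on Y numbered 15, 15 and 19 against 7, 8 and 10, so both genotypes had some. The part of the animals' sex or strain in the autosomal difference was not tested.

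Median peak widths overlapped, while long peaks were fewer in number in the shorter mfn2-/- lists. The median width was 598 ± 2 bp in wild-type and 605 ± 22.2 bp in mfn2-/- lists (exact permutation p = 0.7). Peaks longer than 3 kb numbered 65.7 ± 4.51 against 23 ± 8.54. By list they were 70 of 2176, 66 of 2407 and 61 of 2239 wild-type peaks. In mfn2-/- lists they were 31 of 1014, 24 of 780 and 14 of 1306. As a part of the list, only mfn2-/- list 3 thus lay below the wild-type lists. Among the strongest 780 peaks of each list they numbered 62.3 ± 5.86 against 22.3 ± 8.62. The longest peak of each list reached 19655, 31076 and 23724 bp in wild-type and 8691, 8271 and 8005 bp in mfn2-/- fibers, again without overlap. Scores, which give the MACS p-value as its negative log10 multiplied by 10, had medians of 62.2 ± 0.357 and 59.6 ± 1.71. A score grows with depth, so that scores of different lists are given side by side as values only.

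The authors' annotation places each peak in a promoter (up to 3 kb from a start), exon, intron, UTR, downstream or distal intergenic sequence. Of 628 peaks classed within 1 kb of a start, only 21.5% lay within 1 kb of a RefSeq start. Promoter here thus means the authors' class, not a RefSeq promoter. Intergenic peaks were the most numerous class in all lists. Promoters took 15.8%, 14.1% and 14.8% of wild-type peaks and 11.8%, 14.0% and 10.8% of mfn2-/- peaks, a difference of -2.70 percentage points in which the closest libraries were nearly level. Introns took 19.02% ± 0.650 and 23.9% ± 1.11, a difference of 4.85 points. Groups did not overlap in these classes (exact permutation p = 0.1 for both), whereas distal intergenic peaks (59.8% ± 1.79 and 57.2% ± 3.10, p = 0.3) and exons (3.37% and 3.36%, p = 1) overlapped. The promoter difference was 0.122 points without the 1 Mb windows that held at least 10 peaks in a list, and the intron difference was -2.85 points among peaks with a score of at least 100.

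With the same number of peaks from each list, the difference in the annotated promoter class was larger. The strongest 780 peaks were taken, which is the size of the shortest list. Promoters then held 22.1%, 22.3% and 21.7% of wild-type and 12.9%, 14.0% and 12.7% of mfn2-/- peaks, a difference of -8.80 points. Introns (17.8% against 23.3%) and distal intergenic sequence (50.6% against 55.9%) took more of the mfn2-/- peaks and exons fewer (4.83% against 3.76%). The strongest wild-type peaks were also wider, with medians of 826 and 621 bp, and fell in fewer genes, 478 ± 8.74 against 554 ± 22.5. Each of these had non-overlapping groups and an exact permutation p of 0.1. Distal intergenic peaks and genes with a peak thus lay on opposite sides in the full and the equal-sized lists. The lowest score among the 780 was 68.5 ± 0.971 in wild-type and 53.5 ± 3.19 in mfn2-/- lists, so that equal numbers did not mean equal stringency.

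**Figure D2:**
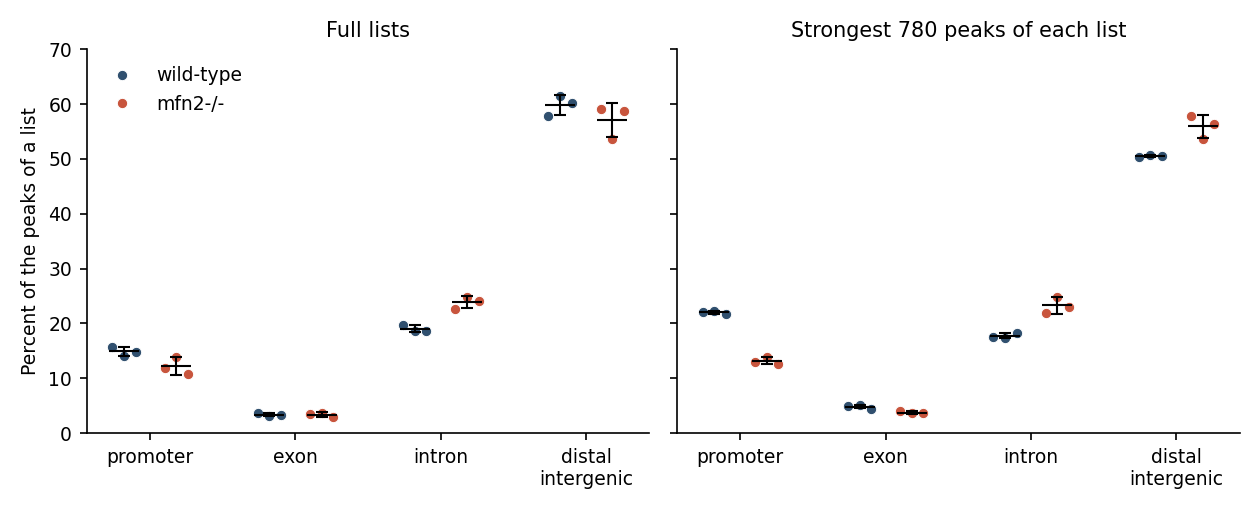
Percent of the autosomal H3K9me3 peaks of a list in 4 classes of the authors' annotation, in the full lists and among the strongest 780 peaks. Points are libraries and bars are mean and SD; for promoters mfn2-/- minus wild-type is -8.80 points among the strongest peaks and -2.70 in the full lists.

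Windows with many peaks had a lower mfn2-/- to wild-type ratio than the others. Of 1704 windows of 1 Mb with a peak in any list, 58 held at least 10 peaks in some list. These had 1100, 1175 and 1161 peaks in wild-type and 310, 292 and 351 in mfn2-/- lists, a ratio of 0.277, and made up 66.7% of the difference in the mean. The other 1646 windows had 1076, 1232 and 1078 against 704, 488 and 955 peaks, a ratio of 0.634, again without overlap of the groups. Because a window needed 10 peaks in only 1 list, the longer wild-type lists could bring in more windows, and the lower ratio and the share of the difference are in part set by that choice. In 144 windows (8.45% of all) every mfn2-/- list had fewer peaks than every wild-type list, and in 21 (1.23%) every mfn2-/- list had more. The 15 windows with the greatest excess in wild-type, chosen for that excess, held 41.6% of the whole difference.

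On chromosome 1, the megabase from 85 to 86 Mb that contains the Sp110 and Sp140 promoters shown above was densely marked in wild-type lists alone of these genotypes. It held 81, 73 and 65 peaks over 230 ± 4.59 kb in the wild-type lists and 0 in each mfn2-/- list. The longest of these wild-type peaks were 17991, 22618 and 18890 bp. H3K9me3 lists of 2 further genotypes were read for comparison: vhl-/-, which lacks the factor that marks HIF1α for degradation, and HIF1dPA, which makes a HIF1α that escapes it, each induced with the same driver and injury. Each list of these 2 genotypes also held fewer autosomal H3K9me3 peaks than any wild-type list, so a lower total was not particular to mfn2-/-. Both genotypes gave peaks in this block, 34, 32 and 35 in vhl-/- and 24, 32 and 42 in HIF1dPA lists. By gene, C130026I21Rik had the most, with 25, 21 and 19 peaks in wild-type and 0 in mfn2-/- lists, and Sp100, Sp110 and Sp140 together had 8, 5 and 8 against 0.

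On chromosome 4 the cluster of KRAB zinc finger genes between 145 and 148 Mb kept peaks in both genotypes. It held 187, 175 and 180 peaks in wild-type and 69, 67 and 70 in mfn2-/- lists, with vhl-/- at 69, 72 and 90 and HIF1dPA at 86, 96 and 76. Zfp986 had 17, 16 and 13 peaks against 3, 2 and 1. Zfp534 had 18, 14 and 11 against 6, 3 and 5, and Zfp979 15, 13 and 19 against 10, 6 and 7. The groups did not overlap for any of the 3 genes, while Zfp985, with 10, 9 and 14 against 7, 10 and 8, overlapped. Those 3 genes were named for their many wild-type peaks, so that their separation is in part set by that choice. Zfp985, and Zfp979 as well, were named for their many mfn2-/- peaks. Coverage in Zfp985 was 36666, 32870 and 34555 bp in wild-type and 22356, 22726 and 12955 bp in mfn2-/- lists.

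Clusters on chromosome 7 had almost no peaks in mfn2-/- lists. Vmn1r genes encode pheromone receptors of the vomeronasal organ. From 20 to 23 Mb, where they are arrayed, the wild-type lists had 98, 119 and 125 peaks and the mfn2-/- lists 0, 2 and 1. Here the vhl-/- lists (0, 2 and 4) and the HIF1dPA lists (7, 2 and 3) were low as well. Nearby, from 15 to 16 Mb, the Obox genes for oocyte homeobox proteins gave 35, 39 and 38 peaks against 2, 0 and 1, with 7, 7 and 9 in vhl-/- and 15, 10 and 5 in HIF1dPA. Peaks of the Vmn1r region were short, the longest being 1011 to 1314 bp in the wild-type lists, unlike the long peaks of the chromosome 1 block.

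Arrays of 2 germline families showed the same separation. The Pramel genes, relatives of a tumor antigen expressed in germ cells, lie on chromosome 5 from 93 to 96 Mb, where wild-type lists had 91, 83 and 94 peaks and mfn2-/- lists 1, 0 and 2. The vhl-/- lists held 26, 21 and 46 there and the HIF1dPA lists 47, 49 and 39. On chromosome 17 from 13 to 14 Mb, around the sperm motility kinase genes Smok2a and Smok2b, the counts were 36, 29 and 47 against 2, 1 and 1. Those genes themselves had 19, 15 and 23 peaks in wild-type and 0 in mfn2-/- lists.

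A zinc finger cluster on chromosome 13 stood apart from the one on chromosome 4. From 65 to 68 Mb, the wild-type lists had 59, 47 and 45 peaks and the mfn2-/- lists 37, 34 and 41, over 35.7 ± 4.73 and 38.3 ± 2.19 kb. The covered length overlapped between genotypes (exact permutation p = 0.5), and among the strongest 780 peaks the mfn2-/- lists had more here, 29, 34 and 31 against 19, 15 and 20. Both other genotypes had far more peaks in this cluster, 140, 135 and 150 in vhl-/- and 152, 153 and 138 in HIF1dPA. All comparisons of these clusters share the 3 wild-type lists, the windows were chosen after their values were seen, and the exact permutation p for the number of peaks was 0.1 in each of the 7.

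**Figure D3:**
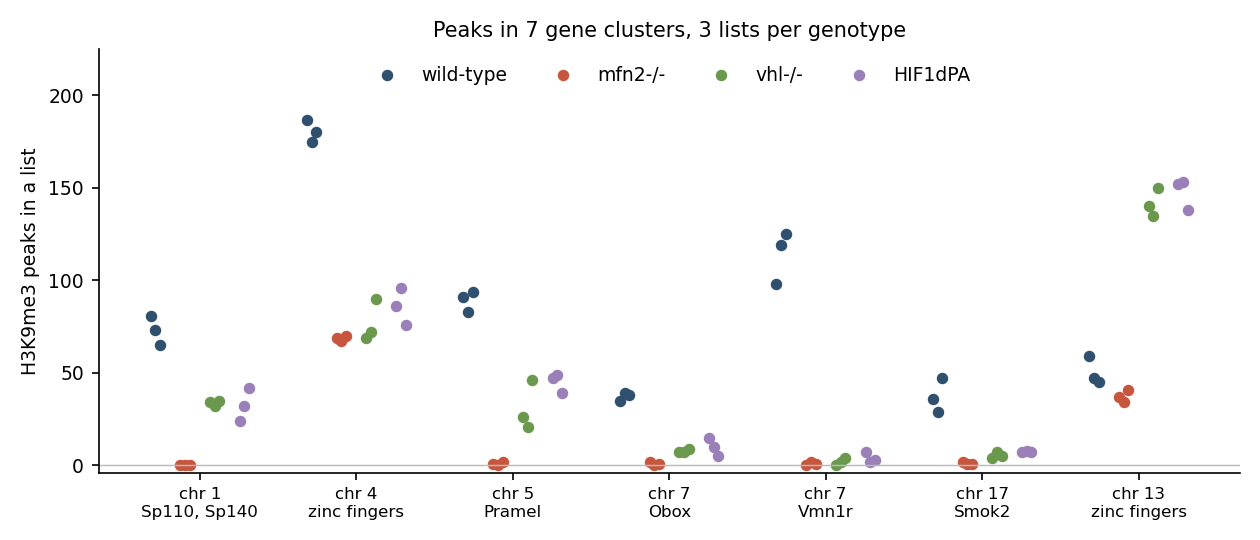
H3K9me3 peaks per list in 7 windows named by chromosome and leading genes, for 3 lists each of wild-type, mfn2-/-, vhl-/- and HIF1dPA. Each point is a library; mfn2-/- lists lie at 0 to 2 peaks in 5 windows, at 67 to 70 in the chromosome 4 zinc finger cluster and at 34 to 41 in that of chromosome 13.

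By chromosome, mfn2-/- lists had a lower share of peaks on 1, 4, 5, 7 and 14 and a higher share on 8 others. The share of the autosomal peaks did not overlap between genotypes on 5 of 19 chromosomes with mfn2-/- lower (26.3%) and on 8 with mfn2-/- higher (42.1%). Chromosome 7 had 15.4%, 16.8% and 17.7% of wild-type and 3.75%, 3.21% and 3.91% of mfn2-/- peaks. Chromosome 1 had 8.46%, 7.23% and 6.97% against 3.45%, 2.31% and 4.67%. Because shares sum to 100%, a lower share on one chromosome makes that of others higher. The higher chromosomes were 3, 6, 8, 10, 11, 13, 15 and 16, among them chromosome 10 with 4.23%, 4.20% and 4.20% against 10.2%, 8.97% and 8.88%.

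Chromosome 15 was the one autosome with more peaks in every mfn2-/- list than in any wild-type list. It held 30, 41 and 34 peaks in wild-type and 62, 51 and 104 in mfn2-/- lists, which is 1.38% to 1.70% and 6.11% to 7.96% of the autosomal peaks. The vhl-/- lists had 0.913% to 1.25% there and the HIF1dPA lists 1.39% to 1.69%. These mfn2-/- peaks were spread out, falling in 38, 32 and 52 windows of 1 Mb against 22, 26 and 26, with at most 4, 5 and 7 peaks in a window. Few recurred, since 9.68%, 7.84% and 5.77% of them overlapped a peak of another mfn2-/- list, below the 13.3%, 17.1% and 20.6% of the wild-type peaks of this chromosome that overlapped another wild-type list. Their median scores, 56.5, 60.6 and 55.9, lay near the caller's limit of 50, as did those of the wild-type peaks there (59.2, 59.1 and 61.25).

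**Figure D4:**
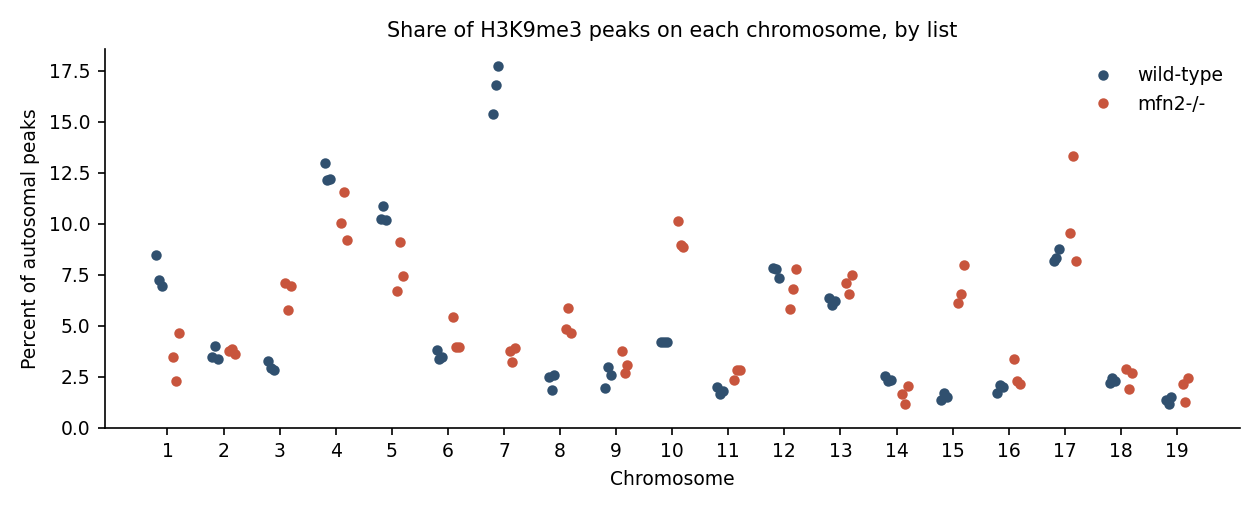
Share of the autosomal H3K9me3 peaks of each list on chromosomes 1 to 19, in percent. Points are libraries; chromosome 7 holds 15.4% to 17.7% in wild-type and 3.21% to 3.91% in mfn2-/- lists, and chromosomes 3, 8, 10 and 15 lie higher in all mfn2-/- lists.

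Grouped by the gene to which the authors assigned each peak, the vomeronasal receptors had fewer peaks in every mfn2-/- list. They took 8.56% ± 0.577 of wild-type and 1.97% ± 0.0902 of mfn2-/- peaks (exact permutation p = 0.1), or 195 ± 20.7 and 20.3 ± 5.13 peaks per list. Vmn1r genes had 119, 148 and 135 against 4, 11 and 14 peaks, of which 115, 133 and 122 against 2, 5 and 5 were on chromosome 7. Vmn2r genes, the second receptor family of that organ, had 53, 64 and 66 against 15, 5 and 12. Vmn1r genes of chromosome 18, with 3, 5 and 9 against 1, 5 and 6 peaks, overlapped between the genotypes. Among 216 vomeronasal genes with a peak, 33 (15.3%) had one in every wild-type and no mfn2-/- list and 0 the reverse, where all 3353 genes with a peak gave 180 (5.37%) and 20 (0.596%).

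Zinc finger genes had overlapping shares in the full lists and a lower mfn2-/- share among the strongest peaks. They took 14.1% ± 0.625 of wild-type and 15.96% ± 3.09 of mfn2-/- peaks (exact permutation p = 0.5), and 20.7% and 17.3% among the strongest 780 (p = 0.1). Of 153 with a peak, 38 had one in all 6 lists, where all 3353 genes with a peak gave 104. In the wild-type lists alone there were 2 zinc finger genes (1.31%), below the 5.37% of all genes. Those were Zfp810, with 3, 2 and 5 peaks, and Zscan4d, a gene of early embryos on chromosome 7, with 3, 2 and 1. Olfactory receptor genes, the largest receptor family of the genome, took 1.19% and 1.14% of peaks (exact permutation p = 0.9). Of 87 of them with a peak, 3 (3.45%, below the 5.37% of all genes) had one in each wild-type list and no mfn2-/- list. These were Olfr461, Olfr57 and Olfr212, with highest scores between 53.0 and 108.

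Gene models without an assigned function held a large part of all peaks. Predicted genes named Gm took 29.3% ± 0.148 and 31.0% ± 0.927 of peaks. Of 954 such genes, 55 (5.77%) had a peak in the wild-type lists alone and 4 in the mfn2-/- lists alone, near the 5.37% of all genes with a peak. The genes named Rik gave 6 (3.97%) and 1 (0.662%) of 151, against 5.37% and 0.596% of all genes. Pseudogenes with a "-ps" name took 6.995% ± 0.603 against 3.69% ± 0.759 of peaks, and 14 of 199 (7.04%) had a peak in the wild-type lists alone. Peak numbers of smaller families stand beside a mean over all peaks of 1033 against 2274. Cytochrome P450 genes, enzymes of drug and steroid oxidation, had 22 ± 4.58 against 2.33 ± 3.21 peaks, with 3 of 28 (10.7%) in wild-type lists alone. Clustered protocadherins, the adhesion molecules that mark single neurons, had 11 ± 1.73 against 1 ± 1 and 1 of 12 (8.33%), beside 5.37% of all genes. None of 919 RefSeq miRNA hairpins lay under a peak.

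Further families were chosen after their values were seen. Pramel genes had 53, 55 and 57 peaks in wild-type and 2, 2 and 2 in mfn2-/- lists. In the wild-type lists alone were 10 of 26 genes, against 180 of all 3353 genes (5.37%). Secretoglobin genes, which encode small secreted proteins of glands, had 13, 17 and 15 against 1, 1 and 2. Skint genes, which act in the selection of skin T cells, had 18, 19 and 10 against 1, 0 and 0. Not all small families separated, as Tdpoz genes had 3, 2 and 4 against 4, 4 and 6 peaks and the defensin genes 3, 1 and 0 against 2, 2 and 2.

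Genes of muscle and of the HIF1 response were looked up in the lists. No peak was assigned to any of 30 muscle structure genes or of 14 genes of mitochondrial dynamics, Mfn2 included, so that the lists offer no check of the deletion. Of 11 skeletal muscle markers none had a peak, and of 15 markers of other cells 1 did, the fibroblast gene Dcn with a single peak in mfn2-/- list 3. Marker genes therefore give no check of the labelled cell type. Of 14 myogenic regulators 2 had a peak in some list, Eya1 among them with distal peaks in wild-type list 3 (84.2) and mfn2-/- list 1 (56.3) at different places.

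Of 35 genes of the HIF1 pathway 4 had a peak. They included P4ha1 and P4ha2, genes for alpha subunits of collagen prolyl 4-hydroxylase, an enzyme of collagen maturation. P4ha2 had a distal intergenic peak in each wild-type list near chr11:54140082-54141061, with scores of 96.8, 85.4 and 127, and none in mfn2-/- lists. P4ha1 had 1 distal peak in mfn2-/- lists 1 (103) and 3 (57.1), in different places, and none in wild-type lists. Both sets are single peaks per list at a distance from the gene.

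Of the genes whose products write or remove the mark, 2 of 20 for methylation and 2 of 10 for demethylation were assigned a peak in at least 1 list. Atf7ip, a partner of SETDB1, had a peak in intron 5 of 14 in wild-type lists 1 (70.6) and 3 (66.0), and in intron 1 in mfn2-/- list 1 (60.2). Imprinted genes had a peak in 11 of 47 cases. Rasgrf1, an exchange factor for Ras, had a peak in intron 2 of 26 at the same place in mfn2-/- lists 2 (66.0) and 3 (63.7) and none elsewhere. Airn, the long noncoding RNA that silences Igf2r, had 0, 1 and 0 against 0, 2 and 1 peaks.

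Most peaks did not recur at all. The 6 lists merged into 7315 regions, of which 4364 had a peak in a single wild-type list and no other, and 1905 in a single mfn2-/- list and no other. A peak in all 3 wild-type lists and in no mfn2-/- list was found for 147 regions (2.01%), and the reverse for 17 (0.232%), while 74 regions had one in all 6. Among the strongest 780 peaks of each list, the counts were 71 (2.26%) and 13 (0.413%) of 3144 regions, and 73 (4.03%) and 22 (1.21%) of 1811 genes. Likeness of lists was measured as the Jaccard index, common base pairs divided by base pairs covered in either list. It averaged 0.206 within wild-type, 0.144 within mfn2-/- and 0.0858 between genotypes, a gap of 0.0894 (exact one-sided test over 10 splits, p = 0.1, the smallest it allows).

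The 147 regions found only in wild-type lists comprised 56 distal intergenic, 38 promoter, 30 intron, 16 exon, 6 3′ UTR and 1 5′ UTR regions with a median length of 1785 bp. Promoters were 25.9% of them, while the 74 regions in all 6 lists had 35.1% in promoters and a median length of 3417 bp. Chromosomes 1 and 4 held 34 and 27 of them, and chromosomes 7 and 17 held 12 each. A peak of at least 1 vhl-/- list fell in 98 of the 147 (66.7%) and of at least 1 HIF1dPA list in 86 (58.5%), against 10.5% and 11.8% of all regions. The 147 had to recur in 3 lists, while 85.7% of all regions had a peak in 1 list only. The gap between these shares is therefore in part set by that requirement. In 39 of the 147 there was none in any of those 6 lists.

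The strongest of these regions was distal to Ly6c2, a surface antigen of monocytes, at chr15:75085369-75087515. Its scores were 1600, 942 and 1339 in the wild-type lists, and all 6 vhl-/- and HIF1dPA lists had a peak there. The next, 19940 bp at the promoter of Gm12735 (chr11:3180533-3200472), scored 662, 389 and 726 and had no peak in any of those 6. A peak 1 to 2 kb from the start of Aida, a gene for an axin-binding protein (chr1:183299002-183299723), scored 364, 400 and 515, and Gm16505 (chr13:3372806-3374038) 323, 312 and 443. Gm12735 and Gm16505 lie near the starts of their chromosomes, and whether repeats gather reads there was not tested. The other 6 of the leading 10 lay on chromosome 1, and 5 of them in the block with Sp140: 2 regions of A530032D15Rik (chr1:85084162-85106705 and chr1:85072425-85084158), Gm16026 (chr1:85230620-85267167, the longest at 36548 bp), Gm2619 (chr1:85304012-85333687) and Gm7281 (chr1:85339016-85347195). The sixth, Gm20528 at chr1:88211249-88230883, covers the Ugt1a1 promoter shown above and scored 237, 315 and 288.

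The 17 regions found only in mfn2-/- lists comprised 7 in introns, 6 distal, 3 at promoters and 1 in a 3′ UTR, with a median length of 1292 bp. The strongest was in intron 15 of 34 of Drosha (chr15:12872545-12873620), the gene for the nuclease that starts microRNA maturation. It scored 169, 232 and 155 and had no peak in any vhl-/- or HIF1dPA list. Ppp2r2b, a regulatory subunit of phosphatase 2A, followed with 113, 147 and 188 in its intron 1 of 8, again with none in those lists. A region at the promoter of Gm10330 (chr12:23780354-23782881) scored 156, 102 and 153, and one in intron 1 of 3 of Zfp97 (chr17:17139511-17141407) 94.8, 77.3 and 116.

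Scores were mostly lower in the others of the leading 10. Regions at 6820431F20Rik (185, 64.1 and 71.4), Ccdc130 (84.3, 68.02 and 64.2), Rxylt1 (88.8, 58.9 and 87.5), Ttc27 (60.9, 68.4 and 80.0), Dop1b (54.0, 95.4 and 107) and Gm10139 (69.98, 70.2 and 57.3) completed them. Rxylt1 encodes an enzyme that builds the sugar chain of dystroglycan, which ties muscle fibers to the matrix. Of all 17, 3 had a peak in at least 1 vhl-/- list and 5 in at least 1 HIF1dPA list, beside the shares of all regions given above. No H3K27me3 peak of either genotype overlapped any of the 17, and 8 of the 147 overlapped one in at least 1 wild-type list. Of all H3K9me3 peaks, 1.29% to 1.38% in wild-type and 1.45% to 2.07% in mfn2-/- lists overlapped H3K27me3. At such shares, 17 regions are too few to show a lack of overlap.

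By gene, 20 had a peak in every mfn2-/- and no wild-type list, and 7 of them (35.0%) were on chromosome 15, where 126 of all 3353 genes with a peak (3.76%) lie. They were Drosha, Ext1, Slc1a3, Pdzrn4, Gm23185, Gm23987 and Gm25976, a group described after its values were seen. A count by gene does not require peaks at a common place. Of the 17 regions found only in mfn2-/- lists, 1 was on chromosome 15, that in Drosha. Ext1, an enzyme of heparan sulfate synthesis, had 2, 2 and 1 peaks, and Slc1a3, a glutamate transporter, 1, 1 and 2. Gm10139 and AU041133 were among the 5 genes with most mfn2-/- peaks, chosen for that number, and their groups did not overlap. On chromosome 13, Gm10139 had 1, 2 and 0 against 7, 9 and 5 peaks. On chromosome 10, AU041133 had 5, 5 and 6 against 11, 8 and 9. Gm21847, also among these 5 genes, overlapped with 8, 10 and 10 against 7, 10 and 7.

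Among the 180 genes with a peak in the wild-type lists alone, 55 (30.6%) were on chromosome 7, 23 (12.8%) on chromosome 5 and 22 (12.2%) on chromosome 1. Of all genes with a peak, 12.6%, 6.59% and 6.32% lay on these chromosomes. Vmn2r-ps15 led the vomeronasal genes of this group with highest scores of 227, 173 and 148. Behind it came Vmn1r159 (76.6, 109 and 84.9), Vmn1r246 (119, 72.0 and 91.9), Vmn1r256 (89.8, 134 and 70.2) and Vmn1r242 (69.2, 108 and 88.3). Cdkn1a, Jarid2, Trdn and Utrn, also in the group, were picked after their values were seen. Cdkn1a, the cell cycle inhibitor p21, had 3, 3 and 5 distal peaks between 29102747 and 29107559 on chromosome 17, with highest scores of 78.5, 141 and 100. Jarid2, a subunit of the polycomb complex, had a peak at 1 place in intron 4 of 18 with 61.8, 62.0 and 59.0. Those of Trdn and Utrn, which encode a calcium release protein and a relative of dystrophin, did not lie at a common place in the 3 lists.

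Regions with a peak in all 6 lists included the highest scores. Gm10801 at chr2:98661690-98665437 ranked 3, 2 and 3 in wild-type and 3, 1 and 1 in mfn2-/- lists. It and Gm10800 beside it (chr2:98665828-98667815) lie in satellite-like sequence that is known to gather reads in many mouse sequencing assays, and whether such sequence was masked was not given in the sources used here. Gm5614 (chr9:35304774-35305905), Gm9075 (chr12:3109372-3110645) and exon 5 of 27 of Chl1, a neural adhesion gene (chr6:103648658-103649714), also had a peak in all lists of both further genotypes. Gm9075 lies near the start of its chromosome, and whether repeats gather reads there was not tested. The zinc finger genes of the chromosome 4 cluster named Zfp987, Zfp985 and Zfp534, were in this group too. Of the 74 regions, 62 had a peak in at least 1 vhl-/- and 65 in at least 1 HIF1dPA list.

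The shared regions were also set side by side by rank within a list, from 1 for the highest score. The mfn2-/- lists are shorter, which makes ranks smaller there. In 15 of 74 (20.3%) every mfn2-/- rank was nearer the top than every wild-type rank, in 10 (13.5%) further from it, and in 49 the ranks overlapped. With the rank as a percent of the list length the counts were 3 (4.05%), 25 (33.8%) and 46, and with ranks among the 74 regions alone 14 (18.9%), 12 (16.2%) and 48, so that the balance of directions depends on the scale. The 10 regions further from the top were so on all 3 scales. A distal region of 9230019H11Rik (chr10:3110937-3115764) was first in all wild-type lists with scores of 2851, 2962 and 2858. Its mfn2-/- ranks were 163, 166 and 323, at scores of 82.0, 76.6 and 68.2, and no vhl-/- or HIF1dPA list had a peak there. This region lies near the start of its chromosome, and whether repeats gather reads there was not tested. The promoter region of Tcte2, a gene of the t-complex (chr17:13549578-13553489), ranked 8, 6 and 12 against 171, 198 and 341, with ranks of 10 to 45 in the 6 other lists.

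The opposite order was seen at the 3′ UTR of Slc30a4, a zinc transporter gene (chr2:122680931-122682749). It ranked 185, 2337 and 618 in wild-type lists and 2, 6 and 7 in mfn2-/- lists, where its scores were 824, 698 and 924 against 116, 50.9 and 72.1. Only HIF1dPA list 2 had a peak there among the further genotypes, with a score of 69.2. At 2010315B03Rik (chr9:124256140-124258437) the ranks were 23, 22 and 24 against 1, 2 and 5. These 4 regions were picked for their ranks, which are given without a test, and kept their order on all 3 scales.

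**Figure D5:**
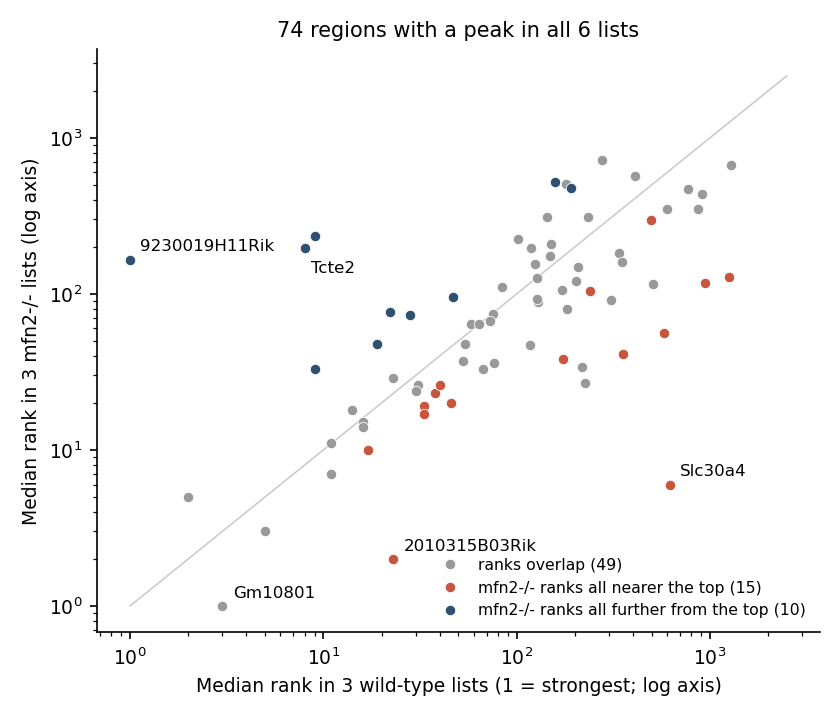
Median rank of the 74 regions with an H3K9me3 peak in all 6 lists, in wild-type (horizontal) and mfn2-/- lists (vertical), both on log axes with rank 1 the highest score and ranks not scaled to the length of the lists. Points are regions and the line marks equal ranks; 9230019H11Rik and Tcte2 lie far above it and Slc30a4 and 2010315B03Rik below, with 49 regions whose ranks overlap in grey.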

How the data were processed

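H3K9me3 ChIP-seq was analysed from the peak lists that the authors deposited, 1 per library. Per the submitters' processing notes, reads went through BWA 0.7.5, MACS and deepTools 3.5.0 on mm10. Each deposited peak has a score, the MACS p-value as a negative log10 multiplied by 10, of at least 50.01. Use of the input and handling of duplicates are not given in the sources used here. Since lists name no read totals, depth is unknown and no interval or floor was computed. Columns of gene, class and position are the authors' annotation.

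Libraries were grouped by label. Peaks on chromosomes 1 to 19 were counted by class, gene list and 1 Mb window, in full lists and for the 780 strongest peaks of each. Regions were peaks merged over the 6 lists where they shared at least 1 bp. Tests between genotypes were exact permutations of the libraries (two-sided, 20 arrangements), adjusted by Benjamini-Hochberg over 25 tests. Scripts were tested on simulated data. Promoter windows are from RefSeq (GRCm38.p6), whose gene table matched 3085 of 3353 gene names, and hold no chromosome 18 sequence. Of 628 peaks classed within 1 kb of a start, 21.5% were within 1 kb of a RefSeq start, against 1.17% of distal peaks.

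Genes and lists were chosen with earlier results of these data known. Named by rule were up to 10 regions found in 1 genotype's lists alone and up to 10 genes in all 6 lists by mean score percentile, the 5 genes with most peaks per genotype, members of the small lists with a peak in at least 2 libraries, and up to 5 zinc finger, olfactory and vomeronasal genes per direction. Alternatives were a score of at least 100, X and Y included, peaks within 1000 bp joined, base pairs in place of peaks, stricter overlap, promoters up to 1 kb, distal peaks left out, peaks shared with H3K27me3 left out, a replicate block, and each library left out. Added after the data were seen were windows with at least 10 peaks left out, vomeronasal peaks left out, promoter windows, cluster windows, further families, ranks on 3 scales and the comparison with H3K27me3. Python 3.11.15 with numpy 2.4.6, pandas 2.3.3, scipy 1.17.1 and matplotlib 3.10.9 was used.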

Additional observations from a re-analysis of the deposited data

Results flagged for a closer look

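The effect of mfn2-/- on the promoter and intron shares was opposite in the 2 marks measured in these fibers, H3K9me3 and H3K27me3. The latter is the mark of polycomb silencing. Of 12 measures, only these 2 were opposite with no overlap of libraries in either mark. The distal intergenic share was lower in mfn2-/- for both marks (-2.67 and -1.70 points), as was the number of peaks. The share of peaks in promoters was lower in mfn2-/- than in wild-type lists for H3K9me3 (-2.70 percentage points) and 2.82 points higher for H3K27me3 (49.3% ± 0.732 in wild-type, 52.2% ± 0.418 in mfn2-/-, SD, n = 3). The difference between the effects was -5.53 points. The share in introns was 4.85 points higher for H3K9me3 and lower for H3K27me3 (14.2% ± 0.673 against 12.9% ± 0.307, a difference of -1.26), and the effects differed by 6.11 points. Exact permutation of the genotype labels within each mark (400 arrangements) gave p = 0.005 for both, the smallest it allows, and 0.03 after adjustment over 12 measures. That test takes the lists of the marks as independent. If same-numbered lists of both marks came from the same animals, genotypes can be permuted only jointly (20 arrangements), and the exact p was 0.1 for both, the smallest possible, and 0.2 after adjustment. In each mark the libraries of the genotypes did not overlap for either share. This comparison was chosen after the data were seen. Without the windows of at least 10 peaks the H3K9me3 promoter difference was 0.122 points, and at a score of at least 100 the H3K9me3 intron difference was -2.85 points, of the same sign as that of H3K27me3. Groups of 3 libraries are too small for a test of outlying libraries.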

How the results depend on the processing

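Values are mfn2-/- minus wild-type, in percentage points for shares. Under the settings listed in the methods, 87 results were kept, 9 counts moved by over 1.5 times and 14 values changed sign. A value was kept where it had the same direction and the same side of the threshold, whatever its size, and a count where it stayed within 1.5 times. No p here could fall below the threshold of 0.05, so that direction alone decided for values. Under settings added later these numbers were 25, 3 and 5, and without 1 library 85, 12 and 5. Among the strongest 780 peaks, promoter share (-8.80), exon share (-1.07) and covered length (-0.651, log2) kept their direction and not their size. The value turned there for distal intergenic share (5.38), median width (-205 bp), genes with a peak (0.212, log2), zinc finger share (-3.42) and olfactory share (0.128), and genotype-specific counts were 71 regions and 73 genes in wild-type. At a score of at least 100, intron share (-2.85), distal share (6.80) and width (-114 bp) turned, with 54 regions and 42 genes in wild-type alone and 5 and 5 in mfn2-/- alone. Without windows of at least 10 peaks, promoter share was 0.122, width -1.17 bp, zinc finger share -1.08 and Gm share -0.288, with 54 and 11 regions in wild-type and mfn2-/- alone and 78 genes in wild-type alone. With X and Y, exon share was 0.405, olfactory share 0.0979 and Gm share -2.10. Joining peaks within 1000 bp gave an exon share of 0.0603, base pairs gave a distal share of 3.59 and an olfactory share of 0.0202, and leaving out vomeronasal peaks gave a Gm share of -0.486. When peaks had to cover at least 50% of a region, 11 were in mfn2-/- alone, and without distal peaks 65 and 11 genes were in 1 genotype alone. Leaving out 1 library gave exon share -0.185 to 0.219, width -2.50 to 19 bp, olfactory share -0.170 to 0.0753, zinc finger share 0.118 to 3.14, peak number -1.35 to -0.981 (log2) and promoter share -3.59 to -2.001. The counts ranged over 155 to 279 regions and 194 to 286 genes in wild-type alone, and 20 to 42 regions and 23 to 73 genes in mfn2-/- alone, since 1 list fewer must then agree. The cause of these changes was not tested. A replicate block changes only the p-value, so that every value stayed as it was by construction and counts among the 87. Its exact p was 0.25 at the smallest for 8 arrangements, with peak number at -1.17 (log2, p = 0.25). The correlation of deviations between same-numbered libraries was 0.014, 0.0060 and 0.0023, and not every library correlated best with its own number, so the numbers were not taken as pairs. Composition of the peak sequence was planned and not run, because a genome was not used here. Depth is unknown, which limits every count of peaks.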
